A study of Mus musculus with 2 samples.

Results

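The 9 genes described here are the genes of the classical major histocompatibility complex (MHC) pathways that were picked by symbol from the 27998 genes of the count matrices, by a rule that names the genes and uses no level. There were 6 class II members, namely H2-Aa, H2-Ab1, H2-Eb1, Cd74, H2-DMa and H2-DMb1, and 3 class I members, namely B2m, H2-K1 and H2-D1, and all 9 were found by symbol and by Ensembl identifier. Single-cell RNA sequencing (scRNA-Seq) was run on the neurohypophysis (NH), the posterior lobe of the pituitary, of C57BL/6 male mice aged 3 months. Tissue of 5 mice was joined in each of 2 pools, which are replicates of 1 untreated condition with no altered allele, so the comparisons are between the cell types of the same pools and cells of single mice cannot be told apart. The dissected tissue also held cells of the intermediate lobe (IL). After the limits on UMIs (unique molecular identifiers, one for each captured transcript), genes and mitochondrial share, 273 cells of pool 1 and 255 cells of pool 2 remained, with medians of 2050.0 and 2330.0 UMIs, and no barcode was shared between the pools.

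The 528 cells fell into the 7 types of the study, which were 196 pituicytes, 148 IL cells, 95 macrophage/microglia, 42 T-cell like cells, 23 epithelial-like cells, 13 vascular endothelia and 11 vascular and leptomeningeal cells (VLMC). In every type all detected markers of its own list were at their highest of the 7 types, and the summed list stood at least 6.51-fold above every other type in each pool. The types had been built by the study on the expression of these same cells, in which the members may have taken part, so the comparisons between types rest on classes that are not independent of the genes. Levels are given as CPM, the UMIs per 1000000 UMIs of a type in a pool, and these sums ran from 8491 to 281271 UMIs. The sums of vascular endothelia and VLMC were the smallest, with 13 and 11 cells in all.

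MHC class I molecules are built of a heavy chain, such as those encoded by H2-K1 and H2-D1, and of beta-2-microglobulin, the product of B2m, and they show peptides from inside the cell to CD8 T cells. MHC class II molecules are pairs of an alpha and a beta chain, of which H2-Aa and H2-Ab1 encode the I-A pair and H2-Eb1 the beta chain of I-E, and they show peptides taken up from outside to CD4 T cells. No gene of the I-E alpha chain was analysed here, so the level of H2-Eb1 does not show that I-E was assembled. Cd74, the invariant chain, holds the class II groove until it is cleaved, and H2-DMa and H2-DMb1 encode the pair that exchanges its last fragment for a peptide. Class I is made by most nucleated cells, whereas class II is known mainly from antigen-presenting cells such as dendritic cells, B cells and macrophages, and in nervous tissue from macrophages at its borders and from activated microglia.

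On GRCm38, 7 of the 9 members lie in the H2 region of chromosome 17. In the GENCODE annotation H2-K1 spans chr17:33996017-34000347 on the minus strand, H2-DMa chr17:34119541-34139101, H2-DMb1 chr17:34153072-34160230, H2-Ab1 chr17:34257689-34269419, H2-Aa chr17:34282744-34287823 on the minus strand, H2-Eb1 chr17:34305867-34316674 and H2-D1 chr17:35262730-35267499. B2m lies at chr2:122147686-122153083 and Cd74 also lies outside the region. UMIs were counted over the exons of these genes, and reads shared by near-identical copies, such as H2-K1, H2-D1 and the H2-Q genes, may have been split between copies or lost, so the levels of the class I heavy chains carry that uncertainty.

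Promoters of the members were searched for elements that are known from class I and class II genes. The 140 bases before the RefSeq start of an alpha chain gene, a beta chain gene and a class I heavy chain gene are shown. These stretches were picked by gene name among those that overlap no annotated exon. They are RefSeq promoters on GRCm38.p6, read 5' to 3' on the strand of the gene, at chr17:34287824-34287963 on the minus strand for H2-Aa, chr17:34305727-34305866 for H2-Eb1 and chr17:34000348-34000487 on the minus strand for H2-K1. Capitals mark the X2 box (TGACGTCA) and the Y box core (TGATTGG) in H2-Aa, the X1 box core (AACTGATG) and the same Y box core in H2-Eb1, and enhancer A (GGGATTCCC) followed by an interferon-type element (TTTCACTTC) in H2-K1.
H2-Aa: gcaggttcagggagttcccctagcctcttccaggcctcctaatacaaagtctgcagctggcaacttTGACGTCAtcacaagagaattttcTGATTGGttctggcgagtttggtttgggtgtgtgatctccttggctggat
H2-Eb1: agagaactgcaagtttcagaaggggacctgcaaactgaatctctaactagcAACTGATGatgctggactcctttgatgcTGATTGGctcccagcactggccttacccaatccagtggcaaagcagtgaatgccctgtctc
H2-K1: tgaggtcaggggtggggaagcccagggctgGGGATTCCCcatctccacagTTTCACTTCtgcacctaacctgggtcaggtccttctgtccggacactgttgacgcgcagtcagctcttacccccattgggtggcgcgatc

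Of the 9 members, 7 had a promoter in the table, and the 2 without one were H2-Ab1 and Cd74. The letters were chosen after the sequences had been seen and were searched on both strands of the 250 bases before each start. The Y box core, which is bound by NF-Y in class II promoters, was in 4 of the 7 promoters, those of H2-Aa, H2-Eb1, H2-DMb1 and, on the minus strand, H2-D1, against 7.23% of 32851 promoters. The X1 box core, which is a site of the RFX complex, was in H2-Eb1 and H2-DMb1 and in 0.676% of all promoters, and the X2 letters were in H2-Aa and in 1.55% of all. Enhancer A, an NF-kappaB site of class I genes, was in H2-K1 and H2-D1 and in 0.301% of all promoters, and the interferon-type letters were in the same pair of genes and in 0.402% of all. The motifs did not overlap each other in the printed stretches, and in B2m and H2-DMa none of these letters were found in this window. A stretch before another start of H2-DMa also overlapped no annotated exon and is not printed.

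Class II UMIs were concentrated in macrophage/microglia. Of the 2244 class II UMIs of all cells, 1097 were of Cd74, and macrophage/microglia held 1769, or 78.8%, with 17.99% of the cells and 13.8% of the UMIs. For comparison, these cells held 47.0% of the 3675 class I UMIs, of which 2214 were of B2m.

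In macrophage/microglia Cd74 stood at 4229 CPM in pool 1 and 4652 CPM in pool 2. The I-A alpha chain H2-Aa had 1466 and 1548 CPM, and its partner H2-Ab1 had 914 and 1557 CPM. H2-Eb1 had 1647 and 1325 CPM. The 3 chain genes were thus within about the same range, below the invariant chain. The peptide exchange genes were lower still, with 180 and 167 CPM for H2-DMa and 113 and 120 CPM for H2-DMb1, from 34 and 23 UMIs in all. Outside this type the epithelial-like cells had the next highest mean of Cd74, with 1398 and 880 CPM, followed by endothelia with 0 and 721 CPM and pituicytes with 407 and 27.6 CPM. In IL cells Cd74 was at 49.8 and 36.1 CPM, in T-cell like cells at 91.0 and 34.4 CPM, and in VLMC it was not found. Both pools of macrophage/microglia were above every sum of the other types for Cd74, H2-Aa, H2-Ab1, H2-Eb1 and H2-DMa. For H2-DMb1 pool 1 of the epithelial-like cells was higher, with 155 CPM from 3 UMIs. How many of all genes had such an order was not counted, so this is a description only.

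**Figure D1:**
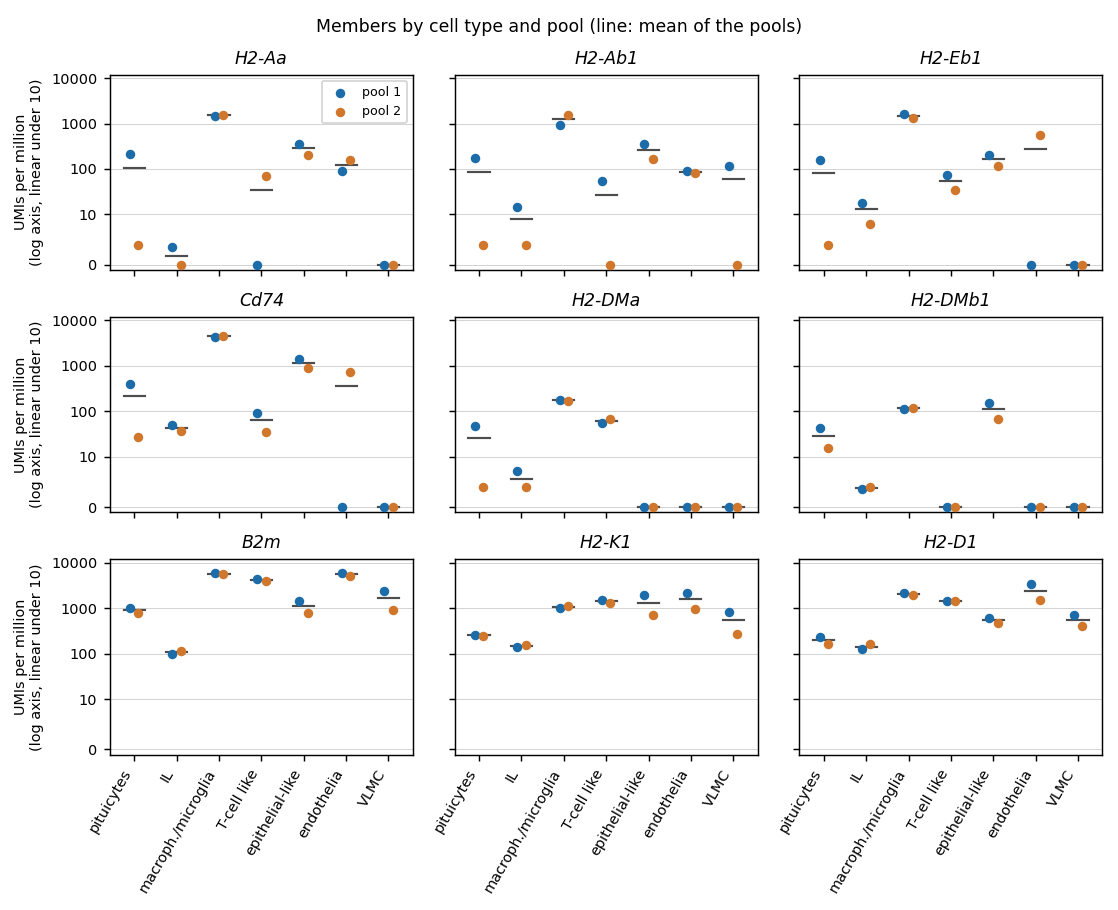
UMIs per 1000000 of each of the 9 members (vertical axis, log scale that is linear under 10) in the 7 cell types (horizontal axis), with 1 point for each pool and a line at the mean of the pools. Cd74 is at 4229 and 4652 in macrophage/microglia, and B2m is between 4057 and 6081 in macrophage/microglia, T-cell like cells and endothelia.

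Against the mean of the other 6 types, all 6 class II members were called higher in macrophage/microglia by edgeR's quasi-likelihood test on the 14 sums, where a gene was called if its p, adjusted by Benjamini-Hochberg over 4510 genes, did not pass 0.05 and its natural log (ln) fold change was 1 or more in size. Of all genes tested, 11.7% were called higher in this type. The edgeR adjusted p was 1.14e-85 for Cd74, 2.76e-56 for H2-Aa, 5.54e-51 for H2-Eb1, 9.23e-45 for H2-Ab1, 5.31e-08 for H2-DMa and 6.18e-05 for H2-DMb1. Fitted ln fold changes ran from 3.08 for H2-DMb1 to 4.05 for H2-Aa, but each of the members had other types with 0 UMIs in at least 1 pool, so these fitted values depend on the prior count and are not measured ratios. Against epithelial-like cells alone, where all 4 genes had UMIs in both pools, the ln differences were 2.33 for H2-Eb1 (edgeR adjusted p = 1.33e-10), 1.79 for H2-Aa (9.62e-08), 1.70 for H2-Ab1 (1.1e-06) and 1.41 for Cd74 (2.21e-07), in a pair where 7.41% of genes were called higher in macrophage/microglia. For H2-DMb1 this difference was 0.24 (edgeR adjusted p = 0.807), with 23 UMIs in one type and 7 in the other.

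The class II UMIs were unevenly spread over the 95 macrophage/microglia cells. In 33 cells none was found, 42 cells had 1 to 9 and 20 cells had 10 or more, with a median of 1.0 and a highest value of 269. The 6 cells with the most held 1160 UMIs, or 65.6%, and 16 cells held 90% of them. In 19 cells all 4 of H2-Aa, H2-Ab1, H2-Eb1 and Cd74 had a UMI. All 21 cells with H2-Aa also had H2-Ab1, which was found in 26 cells, and all 21 also had Cd74, which was found in 48. Over the 95 cells the levels of H2-Aa and H2-Ab1 had a Pearson correlation of 0.920, those of H2-Eb1 and Cd74 one of 0.737, and the other pairs of these 4 genes lay between, as a description over cells that share 2 libraries and differ in depth.

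Class I levels were flatter over the same cells. Of the 95 cells, 98.9% had B2m after each cell was thinned to 1000 UMIs. The summed class I level did not follow the class II level, with a Pearson correlation of -0.0378 over the 95 cells, 0.00274 in pool 1 and -0.0500 in pool 2. Between pairs of class I genes the correlation was 0.186 for B2m and H2-D1, 0.103 for H2-K1 and H2-D1 and 0.0849 for B2m and H2-K1. In counts this sparse such low values describe no relation.

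**Figure D2:**
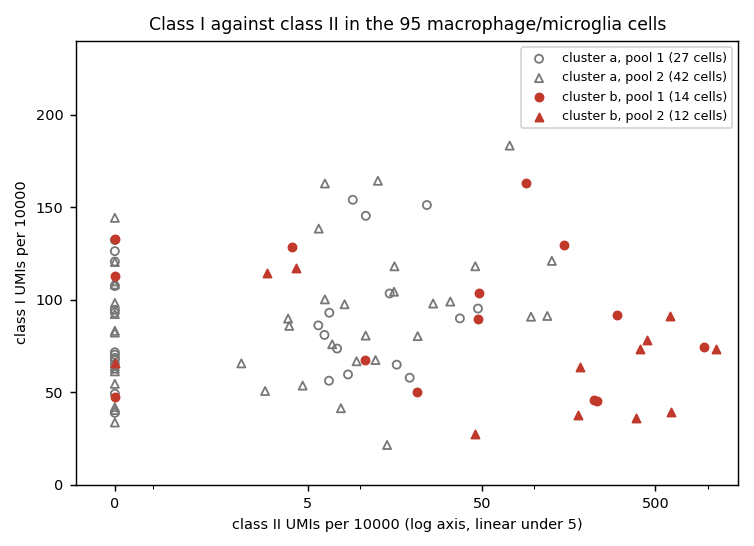
Summed class I level (vertical axis) against summed class II level (horizontal axis), both in UMIs per 10000, of each of the 95 macrophage/microglia cells, with the cluster and the pool as colour and shape. Cells of cluster b reach 1108 class II UMIs per 10000 while class I stays between 21.4 and 183 in cluster a and between 27.3 and 163 in cluster b.

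Macrophage/microglia had been divided by the study into a cluster a of 69 cells (27 in pool 1 and 42 in pool 2) and a cluster b of 26 cells (14 and 12). Because the clusters were made from the expression of these cells, their difference is given with no test. The class II sum was 817 and 2250.5 CPM in cluster a and 18075 and 34353 CPM in cluster b, so that cluster b held 1540 of the 1769 UMIs, or 87.1%, and all 6 of the cells with the most. Cd74 went from 388 and 1262 CPM in cluster a to 8962 and 16550 CPM in cluster b. H2-Aa was at 0 and 321 CPM in cluster a and at 3273 and 5851 CPM in cluster b. For these genes both pools of cluster b were far above both pools of cluster a. H2-Ab1 was at 61.3 and 250 CPM against 1964 and 6143 CPM, and H2-Eb1, with the same values in cluster a, was at 3600 and 5099 CPM in cluster b. For H2-DMa the pools did not keep an order, with 266 and 71.4 CPM in cluster a and 75.5 and 502 CPM in cluster b. H2-DMb1 was at 40.9 and 95.3 CPM against 201 and 209 CPM. Within each cluster the cells still ranged widely, since 29 cells of cluster a and 4 cells of cluster b had no class II UMI, and the median was 5.74 per 10000 UMIs (0 to 127) in cluster a and 119 (0 to 1108) in cluster b.

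Class I differed far less between the clusters than class II, and for B2m and H2-K1 the pools kept no order. B2m stood at 5271 and 5882 CPM in cluster a and at 6495 and 4472 CPM in cluster b, and H2-K1 at 1022 and 1179 CPM against 1032 and 1003 CPM. For H2-D1 the pools of cluster a, with 2350 and 2131 CPM, were above those of cluster b, with 1863 and 1254 CPM. The authors' cluster means, in UMIs per 10000 of each cell, gave 1.10 and 38.4 for H2-Aa, 7.56 and 120 for Cd74 and 54.9 and 56.4 for B2m in clusters a and b. For H2-K1 they gave 11.4 and 10.3, and for H2-D1 22.9 and 14.1.

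Levels of other marker lists in the clusters are given as a description. The share of all genes with the same order in both pools was not computed, so the counts have no baseline. All 7 microglia markers were higher in cluster a in both pools, and their sum was 6293 and 5430 CPM there and 1762 and 1630 CPM in cluster b. Tmem119, a microglial membrane protein, had 73 UMIs in cluster a and 8 in cluster b, P2ry12, a microglial purine receptor, 52 and 4, and Sparc 131 and 1. Of the 8 macrophage/microglia markers, 7 were higher in cluster a in both pools, and Ctss was so only in pool 2, with sums of 29870 and 27613 CPM against 21902 and 12287 CPM. Of the 8 border macrophage markers only Ms4a7 was higher in cluster b in both pools, Mrc1 was lower, 4 had no order and Lyve1 and Cbr2 were at 0, with sums of 695 and 357 CPM against 1359 and 1087 CPM. Ms4a7 had 15 UMIs in cluster a and 56 in cluster b. Dendritic cell markers, of which 3 of 8 (Zbtb46, Itgax and Xcr1) were higher in cluster b in both pools and Clec10a was at 0, summed to 40.9 and 35.7 CPM against 277 and 961 CPM, and among them Cd209a had 15 UMIs in 2 cells of cluster b, Ccr7 6, Xcr1 3 and Clec9a 2, with none in cluster a. Of the 4 monocyte markers 2, Ccr2 and Plac8, were higher in cluster b in both pools, and the list summed to 0 and 23.8 CPM against 2291 and 293 CPM, from few cells, since all 25 UMIs of Ly6c2 came from 1 cell and the 58 UMIs of Plac8 from 3 cells. The 5 T-cell like markers were at 0 in both clusters, and none of the 4 B cell markers kept an order in both pools, with a list sum of up to 167 CPM. The part of these other cells in the class II level of cluster b was not tested. Without cluster b, 4 class II members, H2-Aa, H2-Ab1, H2-Eb1 and Cd74, were still called higher in macrophage/microglia, and H2-DMa and H2-DMb1 no longer passed the filter on low counts. In that fit 464 of 3914 genes were called higher in this type.

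**Figure D3:**
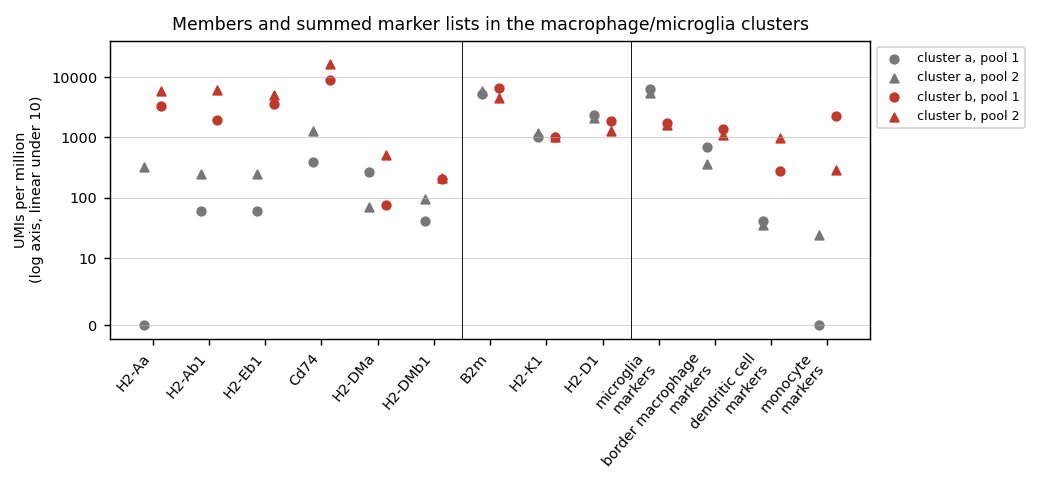
UMIs per 1000000 (vertical axis, log scale that is linear under 10) of the 9 members and of 4 summed marker lists in macrophage/microglia clusters a and b, with 1 point for each cluster and pool. Cd74 lies at 388 and 1262 in cluster a and at 8962 and 16550 in cluster b, while B2m lies between 4472 and 6495 in both.

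Class I was highest in macrophage/microglia, endothelia and T-cell like cells and lowest in IL cells. B2m was at 5819 and 5569 CPM in macrophage/microglia (5694 ± 177, SD, n = 2 pools), at 6081 and 5045 CPM in endothelia (5563 ± 733) and at 4497 and 4057 CPM in T-cell like cells (4277 ± 311). Neighbours among these 3 types were not called different, with ln differences of 0.02 (edgeR adjusted p = 1) and 0.26 (edgeR adjusted p = 0.579). VLMC followed at 2355 and 927 CPM, epithelial-like cells at 1450 and 778 CPM, pituicytes at 1027 and 765 CPM and IL cells at 99.5 and 112 CPM (106 ± 8.95). Along this order the step from T-cell like cells to VLMC was called (ln difference 1.03, edgeR adjusted p = 0.00118, with 3.81% of genes called higher in that pair), as was the step from pituicytes to IL cells (ln difference 2.13, edgeR adjusted p = 5.18e-17, with 10.8% called higher). The steps from VLMC to epithelial-like cells (0.38, edgeR adjusted p = 0.64) and from these to pituicytes (0.16, edgeR adjusted p = 0.817) were not.

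By their means, the types stood in the same order for H2-D1 as for B2m, except that endothelia and macrophage/microglia changed places. These neighbours were called different in neither gene (for H2-D1, ln difference 0.17, edgeR adjusted p = 0.813). H2-D1 was at 3349 and 1521 CPM in endothelia, 2132 and 1937 CPM in macrophage/microglia and 1420 and 1410 CPM in T-cell like cells, and the means of VLMC and epithelial-like cells were 552 ± 219 and 547 ± 104.3 CPM. In pituicytes it was at 229 and 166 CPM and in IL cells at 124 and 160 CPM, which did not overlap with the values of any of the other 5 types. Only the step from T-cell like cells to VLMC was called among neighbours (ln difference 1.005, edgeR adjusted p = 0.0346), and from epithelial-like cells to pituicytes the difference of 0.98 passed the adjusted p (0.00965, edgeR) but not the fold. H2-K1 went from 2203 and 961 CPM in endothelia through 1547 and 1272 CPM in T-cell like cells, 1915 and 711 CPM in epithelial-like cells and 1026 and 1140 CPM in macrophage/microglia to 824 and 265 CPM in VLMC, 259 and 245 CPM in pituicytes and 139 and 156 CPM in IL cells. No neighbours in this order were called different. Macrophage/microglia and epithelial-like cells were also not called different in H2-K1 (ln difference -0.09, edgeR adjusted p = 0.85), whereas H2-D1 was higher in macrophage/microglia by 1.35 (edgeR adjusted p = 7.82e-06).

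Of the 3 class I members, 2 were called higher in macrophage/microglia against the mean of the other types, B2m by 1.52 ± 0.14 on the ln scale (± approximate SE, edgeR adjusted p = 1.67e-25) and H2-D1 with 1.31 ± 0.161 (1.4e-14), while H2-K1, at 0.59 ± 0.176, did not reach the fold. The approximate SE of a ln fold change is its size over the square root of edgeR's F statistic. It is not a fitted standard error or the spread between the pools. In endothelia all 3 were called, in a contrast where 5.3% of genes were called higher, with 1.52 ± 0.213 for H2-D1, 1.49 ± 0.164 for B2m and 1.02 ± 0.239 for H2-K1 (edgeR adjusted p = 1.07e-10, 1.5e-17 and 0.000709). This count rested on the scaling of the sums, since with TMM factors, which ran from 0.683 to 2.17 and moved the median of all genes in endothelia by -0.75 on the log2 scale, none of the 3 was called. With the pool as a block, the H2-K1 value of 0.996 fell just short of the fold. In T-cell like cells 1 of 3 was called, beside 7.61% of all genes, namely B2m with 1.19 ± 0.151 (edgeR adjusted p = 1.82e-13), while H2-K1 and H2-D1 stood at 0.90 ± 0.185 and 0.89 ± 0.186, just under the fold, and all 3 were called under TMM. In epithelial-like cells and VLMC no class I member was called.

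In pituicytes, the astrocyte-like glia of the NH, 2 of 9 members were called lower, H2-D1 with -1.40 ± 0.211 (edgeR adjusted p = 1.09e-09) and H2-K1 with -1.11 ± 0.204 (1.03e-06), beside 1.4% of all genes. B2m, at -0.63 ± 0.174, did not reach the fold. In IL cells, the hormone-producing melanotropes, 4 of 9 were called lower, beside 3.06% of all genes, with B2m at -3.11 ± 0.231 (edgeR adjusted p = 1.21e-38), H2-D1 at -1.78 ± 0.22 (4.68e-14) and H2-K1 at -1.73 ± 0.219 (1.75e-13). The fourth was H2-Ab1 (edgeR adjusted p = 0.000151), with 4 and 1 UMIs in the IL cells of the 2 pools. Every other class II member had a type with 0 UMIs in both pools. A mean that includes such a type could not decide whether they were lower in IL cells. Against single types, Cd74 was called lower in IL cells than in macrophage/microglia (ln difference -4.61, edgeR adjusted p = 2.2e-53) and epithelial-like cells (-3.20, edgeR adjusted p = 1.04e-23). It was not called against T-cell like cells or VLMC. IL cells were the type in which the mean of the common subunit B2m was below both heavy chains, with 106 ± 8.95 CPM against 147 ± 12.5 CPM for H2-K1 and 142 ± 25.4 CPM for H2-D1. The assay counts transcript ends, so these levels do not grow with transcript length. In the other 6 types the mean of B2m was above that of H2-D1, but in epithelial-like cells the mean of H2-K1 (1313 CPM) was above that of B2m (1114 CPM). There the pools kept no order, with H2-K1 at 1915 CPM against 1450 CPM of B2m in pool 1 and 711 against 778 CPM in pool 2. Of the 56 B2m UMIs of IL cells, 14 were in 1 cell, and the free RNA estimate gives 57.3 and 48.7 CPM of B2m in the pools. In VLMC no member was called higher (4.21% of all genes were), and Cd74, which had 0 UMIs there, was called lower (edgeR adjusted p = 0.0045), beside 0.288% of all genes. DESeq2 did not call it (adjusted p = 0.141). Over the 21 pairs of types, 91 of 189 member comparisons were called in either direction, beside 12.2% of the comparisons of all genes, from 16 for Cd74 and 15 for B2m to 6 for H2-DMb1 and 4 for H2-DMa. This count includes H2-Aa, H2-Ab1, H2-Eb1 and Cd74 as higher in pituicytes than in IL cells. Of their UMIs in pituicytes, 44 of 50, 35 of 41, 35 of 38 and 86 of 103 were in 1 cell of pool 1, described below. The count without that cell is not given here.

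The share of cells with a UMI was compared after each cell was thinned to 1000 UMIs, since the types' medians went from 1412 UMIs in endothelia and 1428 in VLMC to 3249 in IL cells. Any class II member was found in 56.8% of macrophage/microglia (exact 95% interval 46.3 to 67.0), 38.5% of endothelia (13.9 to 68.4), 34.8% of epithelial-like cells (16.4 to 57.3, with 14.3% in pool 1 and 43.8% in pool 2), 21.4% of T-cell like cells (10.3 to 36.8), 9.18% of pituicytes (5.53 to 14.1) and 4.05% of IL cells (1.502 to 8.61). These intervals cover counting error only. Free RNA, taken from the 157608 barcodes of pool 1 that held 1 to 50 UMIs, with the amount set by the immune cells' Pomc (the melanotrope hormone gene), made up 6.10% and 5.19% of the UMIs in the pools and would by itself give a class II UMI to 6.64% and 5.68% of thinned cells. For any class II member, the share in IL cells was at or below that level and is read as background, and the interval of pituicytes held it. By single member, H2-DMb1 was in 3.57% of thinned pituicytes (1.45 to 7.22), where free RNA would give 0.0999% and 0.0850%. H2-DMa was in 1.53% (0.317 to 4.41), against 0.216% and 0.184%. For the other class II members the interval of pituicytes held the free RNA values. B2m was found in 98.9% of macrophage/microglia, 97.6% of T-cell like cells, 100% of endothelia, 72.7% of VLMC, 54.6% of pituicytes (47.3 to 61.7), 52.2% of epithelial-like cells and 8.11% of IL cells (4.26 to 13.7), where free RNA would give 5.56% and 4.75%. Without thinning, the class II shares were 65.3% in macrophage/microglia, 65.2% in epithelial-like cells, 16.3% in pituicytes and 12.8% in IL cells.

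**Figure D4:**
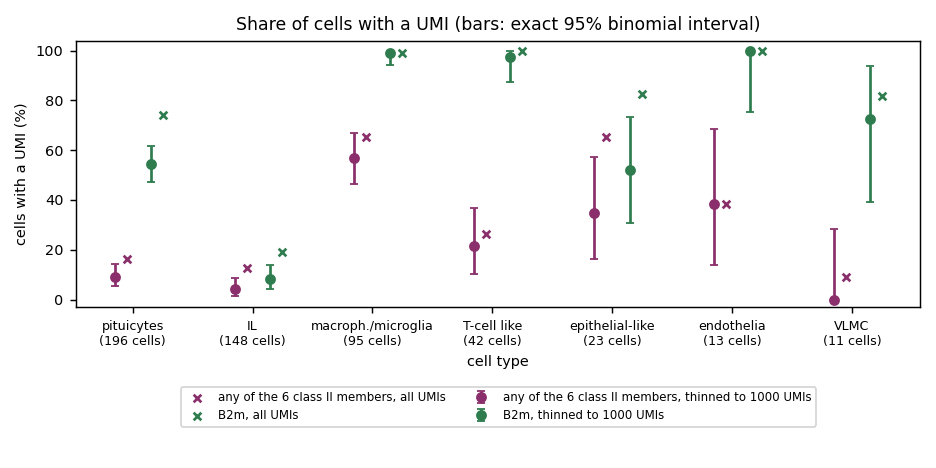
Percent of cells with a UMI of any class II member and of B2m (vertical axis) in the 7 cell types (horizontal axis), with every cell thinned to 1000 UMIs (points, exact 95% intervals) and with all UMIs (crosses). Class II is found in 56.8% of thinned macrophage/microglia and 4.05% of IL cells, and B2m in 98.9% and 8.11%.

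In 2 of the other 6 types, namely pituicytes and endothelia, 1 cell held most of the class II UMIs. In pool 1, 1 cell placed among the pituicytes held 211 of the 243 class II UMIs, or 86.8%, with 86 of Cd74, 44 of H2-Aa, 35 each of H2-Ab1 and H2-Eb1, 9 of H2-DMa and 2 of H2-DMb1. It had the most UMIs of the 196 pituicytes (9070), a mitochondrial share of 3.59% and 1827 genes, and was not marked as a doublet. None of the 8 pituicyte markers was found in it, while 192 of the other 195 pituicytes had at least 1. It held 5 of 8 dendritic cell markers with 17 UMIs, among them 8 of Xcr1, 3 of Clec9a and 3 of Flt3, and none of the other 195 pituicytes had any. It also held 11 UMIs of Irf8, 3 of Ciita, the class II transactivator, 4 of H2-Ob and 6 of Tyrobp, but none of C1qa, Cx3cr1 or Ctss. This cell therefore went against its type's markers, and with it the class II sum of pituicytes was 1031 and 59.2 CPM in the 2 pools, whereas without it pool 1 was at 141 CPM. Without it H2-Ab1 was also called lower in pituicytes, which made 3 members.

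In endothelia 17 of 21 class II UMIs, or 81.0%, were in 1 cell of pool 2, and the sum went from 176 and 1521 CPM with that cell to 176 and 197 CPM without it. In IL cells 13 of 41, or 31.7%, were in 1 cell of pool 1, and without it the pools were at 49.95 and 56.1 CPM, beside 68.7 and 58.5 CPM given by free RNA. T-cell like cells had 273 and 206 CPM from 21 UMIs, of which 8, or 38.1%, were in 1 cell. VLMC had 1 class II UMI, of H2-Ab1, and 0 UMIs of the other 5 class II members in both pools allow up to 127 CPM each.

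**Figure D5:**
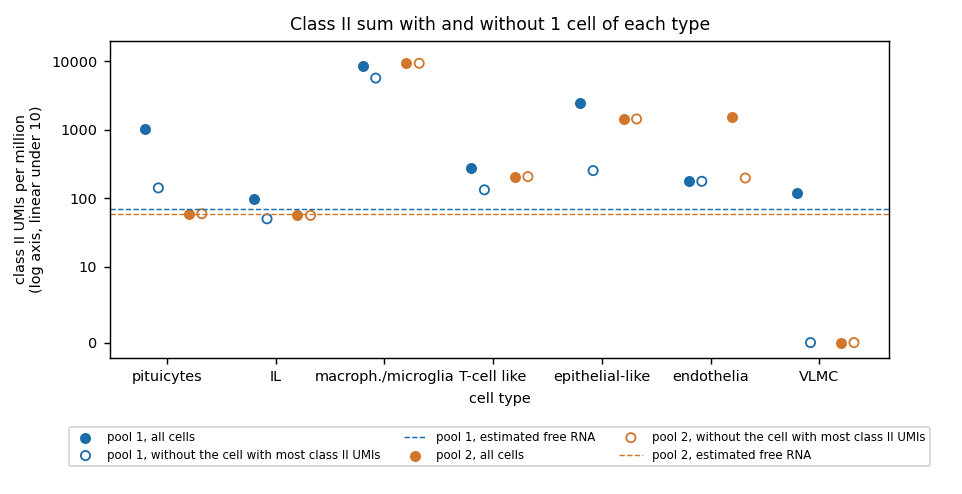
Class II sum in UMIs per 1000000 (vertical axis, log scale that is linear under 10) in each type and pool, with all cells and without the cell that has the most class II UMIs. The dashed lines mark the 68.7 and 58.5 that free RNA would give, and pool 1 of pituicytes moves from 1031 to 141.

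Epithelial-like cells had the second highest class II level, 2485 and 1438 CPM. Of their 133 UMIs, 79 were of Cd74, and H2-DMa was not found, which allows up to 38.3 CPM. Of the 9 members, 4 were called higher, beside 8.8% of all genes, namely Cd74 (edgeR adjusted p = 1.16e-12), H2-Aa (0.000886), H2-DMb1 (0.0261) and H2-Ab1 (0.0349). In pool 1, 45 of 48 UMIs were in 1 of 7 cells, which had all 6 epithelial-like markers and 1 of 8 macrophage/microglia markers, and without it the pool was at 253 CPM. In pool 2, 12 of 16 cells had a class II UMI, and the cell with the most, 34 of 85, held 5 of 6 epithelial-like markers and 7 of 8 macrophage/microglia markers, among them 5 UMIs of Tyrobp and 4 of Ctss. The part of such cells in the calls was not tested. No member was called higher with DESeq2, with a mitochondrial limit of 10% that left 12 of the 23 cells, or against the sum of all other cells.

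Other genes of antigen presentation are given from lists written by function. The list of class II processing holds proteases that cut the invariant chain and the antigens in endosomes. It also holds Cst3, Ifi30 and March1, which are not proteases. Of its genes, 9 of 9 tested were called higher in macrophage/microglia. Their fitted median ln fold change was 3.19, or 2.90 when types at 0 UMIs are set to 3 counts, against -0.04 over all genes. Ctss, the protease of the last step of invariant chain cleavage and itself 1 of the markers of this type, was at 3744 and 3883 CPM, Ctsh at 857 and 1010 CPM and the asparagine endopeptidase gene Lgmn at 1218 and 1548 CPM. In T-cell like cells 3 of 9 were called lower, beside 4.01% of all genes, among them Ctsl with 18.2 and 0 CPM against 643 and 575 CPM in macrophage/microglia, and in IL cells 2. Of the 4 other class II chain genes in the files none passed the filter on low counts: in macrophage/microglia of the 2 pools H2-Oa had 5 and 7 UMIs, H2-DMb2 5 and 6 and H2-Ob 3 and 2, and H2-Eb2 had 6 and 1 in IL cells. The costimulatory genes Cd83 (383 and 667 CPM) and Cd86 (169 and 158 CPM) were the 2 tested of their list and were both called higher in macrophage/microglia.

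Class I peptide loading, which cuts peptides in the proteasome and brings them to the heavy chain, had fewer genes called. Of the 10 tested, 3 were called higher in macrophage/microglia and 4 in T-cell like cells, with fitted list medians of 0.67 and 0.50 (0.56 and 0.13 when types at 0 UMIs are set to 3 counts) against -0.04 and -0.26 over all genes, while 4 were called lower in IL cells and 1 in pituicytes. The immunoproteasome subunit Psmb8 was at 801 and 619 CPM in T-cell like cells (ln fold change 2.07 ± 0.249, edgeR adjusted p = 5.95e-15) and at 451 and 297 CPM in macrophage/microglia, where its ln fold change was 1.29. Psmb9, its partner, was at 419 and 378 CPM, Psmb10 at 164 and 206 CPM and the proteasome activator Psme1 at 583 and 378 CPM in T-cell like cells. Of the other class I genes, 3 of 6 tested were called higher in T-cell like cells, which were H2-Q7 at 892 and 928 CPM, H2-Q6 at 91.0 and 34.4 CPM and H2-T22 at 273 and 309 CPM, and none in macrophage/microglia. In endothelia 2 of the 6 were called higher, H2-Q7 at 793 and 240.2 CPM and H2-T22 at 353 and 240.2 CPM, and H2-Q7 was called lower in pituicytes, at 4.24 and 27.6 CPM, and in IL cells, at 0 and 4.01 CPM. H2-Q6 and H2-Q7 are near-identical copies, so their split is uncertain.

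Among the regulators, Spi1, which encodes the myeloid factor PU.1, was called higher in macrophage/microglia, at 429 and 436 CPM, as was Irf8, at 519 and 473 CPM. Ciita had 9 UMIs in all cells, with 1 and 4 in macrophage/microglia from 3 cells, 3 in the pituicyte of pool 1 described above and 1 in T-cell like cells of pool 2. Nlrc5, its class I counterpart, had 5 and 0 UMIs in macrophage/microglia and 3 and 0 in T-cell like cells, and Rfx5 had 8 and 12 in IL cells, 5 and 6 in pituicytes and 2 and 2 in macrophage/microglia. These 3 genes did not pass the filter on low counts and so were not tested in that fit. Without the filter, edgeR called none of them in any of the 7 types (adjusted p from 0.264 to 1). Of the 15 interferon genes tested, 8 were called higher in macrophage/microglia (fitted median 1.16, or 1.15 with types at 0 UMIs set to 3 counts). Among them Ifngr2, a chain of the interferon gamma receptor, was at 169 and 130 CPM, Ifit3 at 135 and 120 CPM and Ifi27l2a at 1647 and 964 CPM. In T-cell like cells 2 were called higher, beside 7.61% of all genes, and 1, Ifitm3, which restricts viruses, lower with 72.8 and 0 CPM. In endothelia 3 were called higher, beside 5.3% of all genes, and 1 lower, beside 0.133%. Of these 3, Ifit3 had 5 UMIs in pool 1, all from 1 cell, and 0 in pool 2. In IL cells 5 were called lower, beside 3.06% of all genes. In epithelial-like cells 2 were called higher, Ifitm3 at 2744 and 2149 CPM and Oasl2 at 362 and 271 CPM, and in pituicytes 1, Ifit3 at 132 and 27.6 CPM, beside 12.1% of all genes called higher there.

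Of the receptors by which T and natural killer cells read MHC molecules, 4 of 5 tested were called higher in T-cell like cells, beside 7.61% of all genes. Cd8a was at 401 and 206 CPM, Cd8b1 at 583 and 378 CPM, Klrd1 at 583 and 275 CPM and Klrk1 at 200 and 172 CPM. CD8 chains bind class I, and Klrd1 and Klrk1 are receptors of natural killer and CD8 T cells. Cd4, the coreceptor for class II, had 3 UMIs in all cells, 1 in T-cell like cells and 2 in macrophage/microglia. With DESeq2 the adjusted p was 0.0874 for Cd8b1 and 0.203 for Klrd1, and none was given for Cd8a and Klrk1. In macrophage/microglia Klrk1 and Lag3 were called higher, beside 11.7% of all genes. Klrk1 was at 78.9 and 0 CPM, and all 7 of its UMIs there came from 2 cells of pool 1.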

How the data were processed

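Cells of the NH of 2 pools of mice were measured by droplet-based scRNA-Seq. The authors deposited raw UMI counts for each gene and barcode, made per the labels and the study's methods with Cell Ranger 2.0.0 on the mm10 build (GRCm38) and not normalised, and a table of cluster means in UMIs per 10000 over the 11 clusters of both pools. That table calls the IL clusters neural progenitors and was used to find the clusters of the cells and as the authors' means; 0 columns of per-sample values were left unused.

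Cells had over 1000 and under 10000 UMIs, 400 to 5000 genes and under 25% mitochondrial UMIs. Their clusters were recovered by solving for the cells whose means give the deposited table (528 of 528 cells with a weight of at least 0.981 in 1 cluster, other weights at most 0.00315; 349 of 15025 genes differed from the table by over 0.05). A cell was put in its type by the authors' clusters, and 3 cells marked by Scrublet (scanpy 1.11.5) were kept.

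Counts were summed per type and pool. Genes passing filterByExpr (minimum count 5, total 15) were fitted in 1 model of 14 sums with edgeR 4.0.16 (R 4.3.3), scaled by library size, each type against the mean of the other 6; the script was tested on simulated data first. In the simulated counts, genes raised 4-fold were called in 81% (macrophage/microglia), 91% (pituicytes) and 68% (T-cell like cells) of cases. Genes lowered 4-fold were called in 29%, 29% and 21%, so a gene that was not called may still be lower. The common dispersion was 0.0368 with 7 residual degrees of freedom. The replicates are pools of separate mice. The types of a pool share its mice and library, so the pool numbers pair the sums, although the pool differences of types correlated weakly (-0.0346 to 0.148, median 0.0256, over 21 pairs of types). Intervals of shares are exact (Clopper-Pearson), and a count of 0 was taken to allow 3 counts. Alternatives were TMM, DESeq2 1.42.0, no filter, a replicate block, a 10% mitochondrial limit, own clustering (Seurat 5.3.0) without MHC genes, removal of doublets, free RNA subtraction, the sum of all other cells as the reference, each pool left out and, chosen after seeing the data, each macrophage/microglia cluster or the pituicyte with most class II UMIs left out.

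The members and lists were chosen with earlier results of these data known. All 9 members were named, and from each list Ciita, Rfx5, Nlrc5, Cd4, Cd8a and Cd8b1 and up to 4 called genes with the largest change; the markers named in the clusters and in single cells, Cd40, Isg15 and the like, were chosen after their values were seen. Trac, Trbc2, Ighm, H2-K2 and H2-Ea-ps were not analysed here. The count over the list of regulators is not reported here.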

Additional observations from a re-analysis of the deposited data

Results flagged for a closer look

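Signal of the members was also found in barcodes that no comparison uses. Among the 1500 barcodes of each pool kept by the forced cell number, 1133 in pool 1 and 1168 in pool 2 were under the limits for cells. In these the class II sum was 1560 per 1000000 UMIs in pool 1 and 1661 in pool 2, near the 1573 of all kept cells. Their class I sum was 1935 per 1000000 in pool 1 and 1451 in pool 2, against 2576 in kept cells. These barcodes were given no type.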

How the results depend on the processing

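The 6 class II members and the class I members B2m and H2-D1 were called higher in macrophage/microglia under every fitted alternative that kept both clusters, except that H2-DMb1 was not called at the 10% mitochondrial limit (5 members), and H2-K1 was also called against the sum of all other cells (3 class I members). Without 1 cluster the class II count was 4 (without b) or 5 (without a). Over all genes, those called higher in macrophage/microglia went from 526 of 4510 to 464 of 3914 without b and 294 of 2402 without a. They were 745 of 4510 under TMM, 316 of 4510 with DESeq2, 338 of 2361 at the 10% limit and 722 of 8619 against the sum. The pools of 1 condition carry the limits: 2 replicates, 11 to 23 cells in each of the 3 smallest types and single cells that hold most class II UMIs of pituicytes and endothelia. VLMC had only 1 class II UMI. TMM moved the median of all genes by between -0.75 (endothelia) and 0.48 (macrophage/microglia) on the log2 scale, and the share of calls that were higher went from 97.6% to 87.0% in endothelia and from 93.6% to 65.7% in VLMC. Class I members called in T-cell like cells, 1 as reported, were 3 under TMM, 3 with own clustering, 3 against the sum of all other cells and 2 at the 10% mitochondrial limit. Over all genes, 343 of 4510 were called higher in this type as reported. In the same settings in turn they were 427 of 4510, 390 of 5740, 377 of 8414 and 224 of 2361. Members called lower in pituicytes, 2 as reported, were 1 under TMM and 1 at the 10% limit (H2-D1) and 5 against the sum of all other cells, and those in IL cells went from 4 to 7 with own clustering and 9 against the sum. Over all genes, those called lower in pituicytes went from 63 of 4510 to 43 of 4510, 14 of 2361 and 952 of 8951 in these settings. In IL cells they went from 138 of 4510 to 330 of 5740 with own clustering and 1229 of 8995 against the sum. In endothelia the count of 3 fell to 0 under TMM, and in epithelial-like cells the count of 4 fell to 0 with DESeq2, 0 at the 10% limit and 0 against the sum. Over all genes, those called higher in endothelia went from 239 to 154 of 4510 under TMM. In epithelial-like cells they went from 397 of 4510 to 195 of 4510, 189 of 2361 and 208 of 8685. The cause of these shifts was not tested, except that the sum as reference weighs types by their UMIs and the 10% limit leaves fewer cells. Own clustering kept the same 42 T-cell like cells and changed their reference. There endothelia and most VLMC and epithelial-like cells formed 1 cluster, beside IL cells, pituicytes and macrophage/microglia. H2-Aa in epithelial-like cells turned to -0.60 (ln) at the 10% limit and -0.056 against the sum, and H2-Ab1 to -0.0044 against the sum. With the replicate block, the pairing of the pools left 92 of the 189 pair comparisons called, against 91, and ended the call of H2-K1 in endothelia (0.996). Own clustering could not give values for endothelia, VLMC and epithelial-like cells, since 13 of 13, 8 of 11 and 22 of 23 of them fell in 1 unnamed cluster. Of 376 single values under the fitted alternatives, 345 kept their call, 20 lost a call, 8 gained one and 3 reversed. These values cover 33 pairs of a member and a type, namely those called as reported and all pairs of the class I members. Class II pairs not called as reported were left out, so calls that they gained are not among the 8. A change of sign counted as a reversal only where a value was called, so uncalled values may have changed sign. Of 66 values without 1 pool, which have no test, 0 of those called as reported reversed, and changes of sign among the uncalled were not counted. Without thinning, any class II member was found in 16.3% of pituicytes, 12.8% of IL cells and 65.2% of epithelial-like cells, and B2m in 74.0% of pituicytes, 18.9% of IL cells, 100% of T-cell like cells and 82.6% of epithelial-like cells. Leaving out each pool, class II was in 14.3% to 43.8% of epithelial-like cells, B2m in 98.1% to 100% of macrophage/microglia and 96.2% to 100% of T-cell like cells, and cluster b held 81.3% to 94.7% of the class II UMIs. Of 84 list counts, 78 stayed within 1.5 times. The exceptions were class I loading in macrophage/microglia (3 as reported, 5 under TMM, 6 against the sum, 1 without cluster b and 6 without cluster a), interferon genes there (8, and 5 without cluster b) and the T cell receptors (4, and 0 with DESeq2).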

Other observations

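The levels of other antigen presentation genes in the macrophage/microglia clusters are given with no test, since the clusters were made from these cells, and the genes named were chosen after their values were seen. The share of all genes that were higher in 1 cluster in both pools was not computed. The counts below therefore have no baseline and are not read as a shift of a list. Of 17 interferon genes, 11 were higher in cluster b in both pools, 2, the receptor genes Ifngr2 and Ifnar2, were higher in cluster a, 3 had no order and 1 was at 0. Of 10 class II processing genes, 5 were higher in cluster a in both pools (Ctsl, Ctsd, Ctsh, Lgmn and Cst3), and Ifi30 was higher in cluster b. Of 13 class I loading genes, 9 were higher in cluster b in both pools and 1, Pdia3, was higher in cluster a. Isg15, an interferon-induced ubiquitin-like protein, was at 81.7 and 35.7 CPM in cluster a and at 730 and 460 CPM in cluster b, where its 40 UMIs came from 10 of 26 cells. Ifi27l2a was at 695 and 857 CPM against 2820 and 1337 CPM. Irf7 was at 81.7 and 47.6 CPM against 579 and 83.6 CPM, so that most of the gap was in pool 1. Of the 4 other class II chain genes 3 were higher in cluster b in both pools, from few UMIs. H2-DMb2, a beta chain of the peptide exchange pair, had 1 UMI in cluster a and 10 in cluster b from 4 cells, and Cd40, the costimulatory receptor, had 1 and 9. The immunoproteasome gene Psmb8 was at 286 and 298 CPM in cluster a and at 655 and 293 CPM in cluster b, so that the pools kept no order.

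Over the 14 sums, on log2(CPM + 100), the non-member genes whose level was most like the class II sum by Pearson correlation were Il10rb (0.886), Tlr2 (0.857), Nfkbia (0.855), Tifa (0.850) and Cd33 (0.844). For the class I sum they were Tmsb4x (0.923), Psme1 (0.914), Arpc1b (0.892), Msn (0.885) and Clic1 (0.852). The sums share pools and types. Over the 95 macrophage/microglia cells the genes most like the class II sum were Tecr (0.438), Fxyd5 (0.410), Wfdc17 (0.404), Smim14 (0.392) and Lgals3 (0.390), all far below the values between the class II members. The lowest values, looked at after the data had been seen, were those of Cx3cr1 (-0.611), Sepp1 (-0.497), Ctsd (-0.494), C1qa (-0.465) and C1qc (-0.425), of which Ctsd is a protease of the class II processing list and Cx3cr1 a receptor of microglia. These cells share 2 libraries and differ in depth.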
